A study of Mus musculus with 64 samples.

Results

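Basp1 was the gene examined, together with the transposon insertions that fell in it and in the 50 kb on each side. It was chosen by its number of insertions in PB tumours relative to the number expected from its TTAA sites, so that its level in PB tumours, and any difference from the other groups that rests on that level, is given as a description without a test. It is 1 of 22555 curated RefSeq genes that hold a TTAA site, and the window around it held 104 of the 385883 deposited insertion lines. Of these lines, 95 came from PB tumours, 4 from PB tails, 4 from SB tumours and 1 from SB tails.

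The screen used mice in which a mobile DNA element, the transposon, was moved by its transposase, either piggyBac (PB), which inserts at TTAA, or Sleeping Beauty (SB), which inserts at TA. Of the 64 samples, 30 were tumours and 12 were tails of PB mice, 11 were tumours and 11 were tails of SB mice, and no mouse was named in the labels of more than 1 sample. The tumours were diffuse large B cell lymphomas taken from spleen, mesenteric or other nodes and masses, and in SB mice also from gut and thymus. The DNA next to transposon ends was enriched with splinkerette PCR and read on a sequencer, and each insertion carries a count of reads.

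Both transposases were constitutive knock-ins at Rosa26 (Rosa26PB and Rosa26SB), so tail tissue carried insertions too and served as the control. The SB mice came from crosses of Rosa26SB carriers with the ITP1-C or ITP2-M transposon lines, each homozygous for the m3 allele of Blm, the helicase gene lost in Bloom syndrome. The PB mice carried ITP transposons, and their Blm genotype is not given in the sources used here. The strain background was a mixture of 3 strains, C57BL/6 and FVB among them, and the ages of the mice are not given in the sources used here.

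Basp1 encodes a small acidic protein that is attached to the inner face of the plasma membrane by a myristoyl group. Like Gap43 and Marcks, it binds phosphoinositides and is phosphorylated by protein kinase C. In the nucleus it acts as a corepressor of the transcription factor Wt1.

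On mm10 the gene lies on the minus strand at chr15:25363277-25413764 and spans 50488 bp. It has 2 exons in RefSeq. Exon 1, at chr15:25413552-25413764, is untranslated, and exon 2, at chr15:25363277-25364918, holds the whole coding sequence of 681 bp and the 3′ UTR. The single intron between them, at chr15:25364919-25413551, makes up 48633 bp. The gene holds 254 TTAA sites, of which 247 are in the intron, 7 in the 3′ UTR and none in the coding sequence.

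In PB tumours, 82 insertions lay in Basp1, in 20 of the 30 tumours. Lines of a sample at the same motif were taken as 1 insertion. The number expected was 3.07, from the insertions of chromosome 15 and the share of its TTAA sites that lie in the gene. The observed number was 26.7 times the expected one. This expectation treats all TTAA sites of the chromosome alike. It does not take in the preference of PB for genes and open chromatin that the paper reports. A tumour held between 0 and 16 insertions in the gene, with a median of 2. In 10 tumours there were none, and the 2 highest, PB tumour 22 with 16 and PB tumour 23 with 11, stood apart from the next value of 6. The level that chose the gene was past the threshold for 1121 of 22555 genes in PB tumours (4.97%), the threshold being a Bonferroni-adjusted p under 0.05 for an excess (Wald test, Poisson model) together with insertions in at least 3 samples and 5% of samples.

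Expressed per 1000 kept insertions of the same sample, the Basp1 rate in PB tumours was 0.426 ± 0.517 (SD, n = 30). The lowest value was 0, the median 0.336 and the highest 2.37. This mean was higher among tumours with more kept insertions. The 15 tumours with the fewest kept insertions, from 756 to 4017, held 10 Basp1 insertions in 5 tumours, whereas the 15 with the most, from 4549 to 10800, held 72 in all 15. The rate per 1000 was 0.177 ± 0.303 (SD, n = 15) in the former and 0.675 ± 0.574 (SD, n = 15) in the latter. The part of the number of kept insertions in these levels was not tested.

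**Figure D1:**
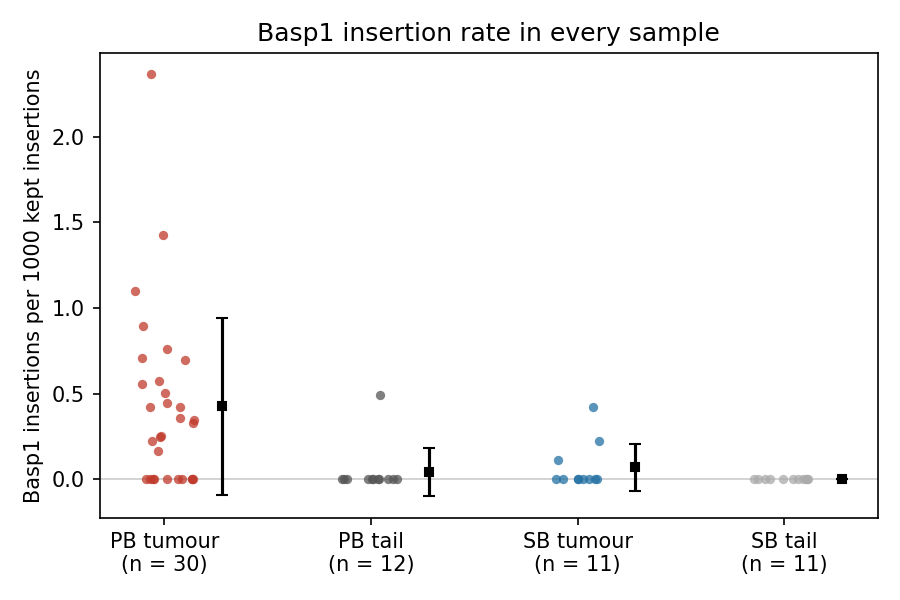
Basp1 insertions per 1000 kept insertions (vertical axis) in every sample of the 4 groups, with 1 point per sample, spread sideways only for visibility, and squares and bars for the mean ± SD. PB tumours reach 2.37, while 1 PB tail and 3 SB tumours are above 0 and all 11 SB tails are at 0.

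The other groups were not used to choose the gene. In PB tails there was 1 insertion in Basp1, in PB tail 11, against 0.947 expected (one-sided Wald p = 0.478, Bonferroni-adjusted p = 1). In that group 282 of 22555 genes passed the threshold (1.25%). The PB tail rate was 0.0410 ± 0.142 per 1000 (SD, n = 12), with a median of 0 and a highest value of 0.491.

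In SB tumours there were 4 insertions in Basp1, in 3 of 11 tumours, against 0.928 expected. This was 4.31 times the expected number, with an unadjusted one-sided p of 0.00174 by the Wald test and 0.0149 by exact Poisson probabilities, and a Bonferroni-adjusted p of 1 by each, and 95 of 23856 genes passed the threshold in SB tumours (0.398%). The rate was 0.0690 ± 0.137 per 1000 (SD, n = 11), with a median of 0 and a highest value of 0.421 in SB tumour 6. In the 11 SB tails no insertion was found in the gene where 1.10 were expected, and 43 of 23856 genes passed the threshold (0.18%). A count of 0 in the 50789 kept insertions of SB tails allows a rate of up to 0.0591 per 1000. Reads from PCR without molecular identifiers are not independent molecules, and this limit covers counting error only.

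Between SB tumours and SB tails the Basp1 rate gave a two-sided permutation p of 0.215 (n = 11 and 11). With insertions in 3 of the 22 samples, all of them tumours, the smallest p possible was 0.214, so that this test could not pass the threshold and does not show that the groups were alike. With 4 insertions over both groups the gene was under the minimum of 10 for the edgeR fit, in which 10 of 1153 genes passed an adjusted p of 0.05 (0.867%). Without that minimum its fitted difference was 2.04 on the log2 scale, higher in tumours, with an edgeR adjusted p of 0.429, in a fit where 7 of 10170 genes passed. As SB tails held 0 insertions in the gene, the size of this difference depends on the prior count of the fit. In the order of mean rates, PB tumours came first, then SB tumours, PB tails and SB tails. SB tumours and PB tails overlapped, since the median of each was 0.

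All 82 PB tumour insertions in Basp1 lay in the intron, which holds 247 of the 254 TTAA sites of the gene. Counted in steps of 10 kb from the start of the gene, the intron held 15, 16, 19, 23 and 9 insertions, the last step being cut short by exon 2. Per 100 TTAA sites these were 29.4, 31.4, 33.9, 52.3 and 20 insertions. The distance of a tumour's insertions from the start of the gene differed from the mean distance of its TTAA sites by −0.784 ± 7.76 kb (SD, n = 20), which was within the spread of the tumours (two-sided sign-flip permutation p = 0.668). It turned to 0.125 kb in the 4 tumours with separated names and to 1.15 kb without positions shared with another sample. For insertions with at least 10 reads it was −3.94 ± 11.7 kb (SD, n = 16), also within the spread of the tumours (sign-flip permutation p = 0.195).

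The flanks differed in their numbers. In the 50 kb upstream of exon 1 there was 1 PB tumour insertion in 256 TTAA sites, against 3.10 expected. In the 50 kb downstream of exon 2 there were 12, in 9 tumours, against 3.82 expected. Of these 12, 9 lay within 10 kb of the gene, where 0.641 were expected, and 3 lay further away, where 3.18 were expected. PB tails had 3 downstream, in 3 tails, against 1.18 expected and 0 upstream against 0.955 expected. Within 10 kb downstream, PB tails had 1 against 0.198 expected and SB tails had 1 against 0.214 expected. As the window was part of the choice of the locus, these numbers carry no test.

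The 300 bp around the start of the gene, taken from RefSeq on mm10, held no TTAA. A TTAA is found in 52.4% of 32851 such promoters. PB could therefore not be counted there, and a lack of insertions at the promoter says nothing of its use.

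**Figure D2:**
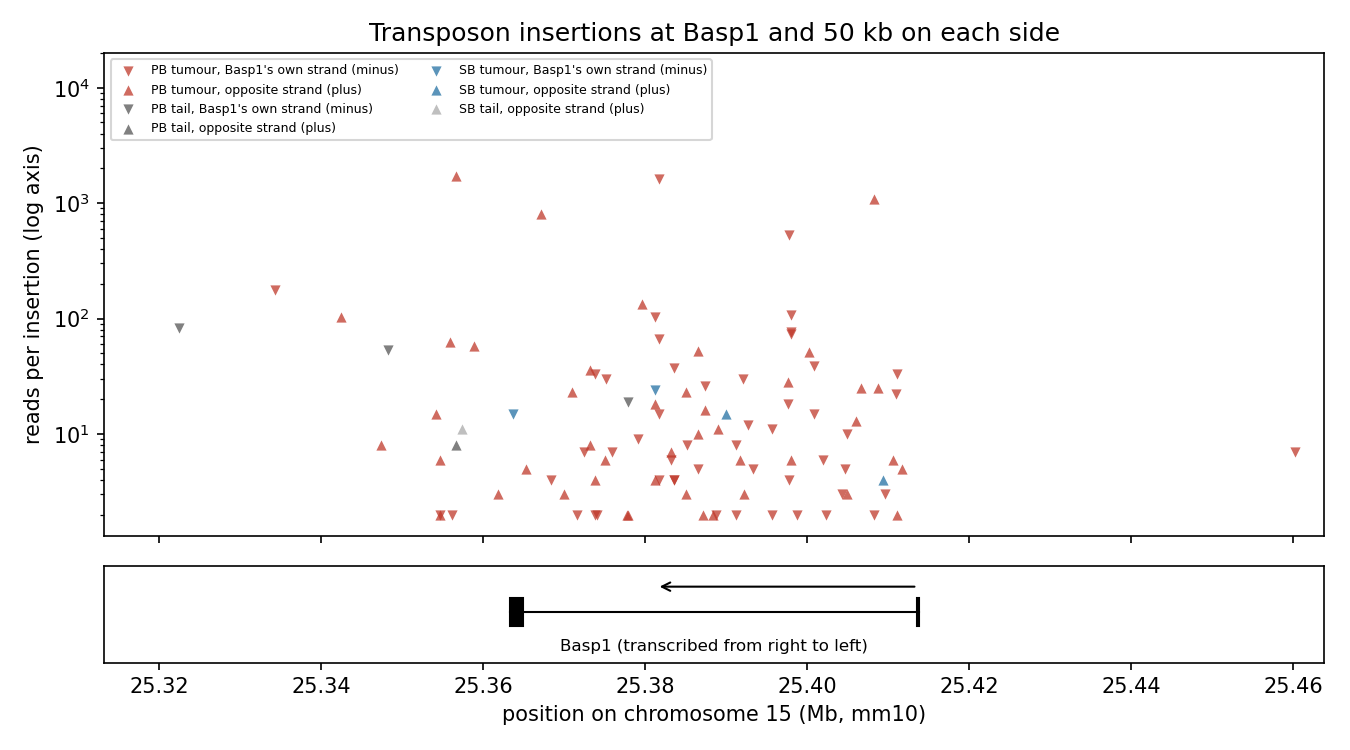
Insertions at Basp1 and 50 kb on each side by position on chromosome 15 (horizontal axis, Mb, mm10) and reads (vertical log axis), with triangles pointing down for the strand of the gene and up for the opposite strand, coloured by group. The lower panel draws the 2 exons as boxes. The PB tumour insertions fill the intron, with 12 on the downstream side and 1 on the upstream side.

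Of the 82 insertions, 47 had the orientation of the gene's own strand. Which end of the transposon the deposited orientation refers to is not given in the sources used here, so that only the balance between strands can be read from it. The share on the gene's own strand was 55.5% ± 31.9 (SD, n = 20 tumours), with a median of 58.3%, and did not differ from 50% beyond the spread of the tumours (two-sided sign-flip permutation p = 0.453). Among 2120 genes hit in at least 10 PB tumours, none passed an adjusted p of 0.05 in the same test (0%), whereas 76 had an unadjusted p under 0.05. The median gene had a share of 49.0%, and 608 genes had a higher share than Basp1.

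The read count of an insertion was turned into its percentile among all kept insertions of the same tumour, so that 50 is the middle of that tumour. The Basp1 insertions of a tumour had a mean percentile of 60.8 ± 20.8 (SD, n = 20), from 5.92 in PB tumour 6 to 91.1 in PB tumour 18. In 15 of the 20 it exceeded 50 (permutation p = 0.0329, two-sided, by sign flips). Among the 2120 genes 130 had an unadjusted p under 0.05 in this test. After adjustment over these genes the p was 0.741, and 1 of these genes passed (0.0472%). Basp1 thus failed the correction, and 173 of the 2120 genes had a higher mean percentile.

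Reads were spread over a wide range. The 82 insertions had between 2 and 1627 reads, with a median of 7.5, and 37 of them, in 16 tumours, had at least 10. In the top 1% of their tumour were 3 insertions. The highest, with 1627 reads, was the insertion of rank 23 among 8649 in PB tumour 7 and made up 0.991% of its reads. The next were 1096 reads in PB tumour 11, at rank 83 of 9444, and 809 reads in PB tumour 8, at rank 44 of 6974. PB tumour 22, which had the most insertions in the gene, had none above 8 reads there. That tumour had a median of 3 reads over all its kept insertions and of 4 over those in Basp1. Its Basp1 insertions had a mean read percentile of 57.3.

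The gene's 82 insertions used 65 of its 254 TTAA sites. Of these 65 sites, 52 were hit in 1 tumour, 10 in 2 tumours, 2 in 3 tumours and 1 in 4 tumours. The sequences of the sites hit in 3 or more tumours, and of the 3 with the most reads, are printed on the plus strand of mm10 to show what the transposon met there, with 10 bases on each side and the TTAA in capitals. All of them are intronic.
chr15:25397993-25397996, hit in 4 tumours: cctcacgtgcTTAAgatctacaga
chr15:25383509-25383512, hit in 3 tumours: atacttttatTTAAaaactttagt
chr15:25381738-25381741, hit in 3 tumours, with 1627 reads in PB tumour 7: catccctgtcTTAAggggggaaac
chr15:25408252-25408255, with 1096 reads in PB tumour 11: gaccccgtttTTAAgaagcacgtg
chr15:25367144-25367147, with 809 reads in PB tumour 8: tatcagatgcTTAAgaaatgagag
Over all sites of the gene, a T 3 bases before the TTAA was found in 31 of 65 hit sites (47.7%) and in 54 of 189 sites that were not hit (28.6%). An A at the mirrored place after the TTAA was found in 25 of the hit sites (38.5%) and in 56 of the others (29.6%). These shares are a description of neighbouring sites in 1 gene and were not tested.

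Of the 82 Basp1 insertions, 30 (36.6%) were at a position that another PB sample also held. As the gene was chosen for its many insertions per TTAA site, which leaves more room for sharing, this share is a description only. In PB tumour 22, 7 of the 16 Basp1 insertions were at such positions. Over all its kept insertions this tumour had the highest share of shared positions, 11.5%, where the median tumour had 8.75%. The shared insertions had a median of 22 reads and the others of 6. These medians pool insertions over tumours of unlike coverage. Among tumours with a Basp1 insertion, the median reads of kept insertions ran from 3 (PB tumour 22) to 27 (PB tumour 29). The part of coverage in this difference was not tested. Without the shared positions, 52 Basp1 insertions in 19 tumours remained, 18.7 times the number expected from the insertions of chromosome 15 that were not shared. The origin of the shared positions was not tested.

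The strand and read values rested in part on these positions. Of the 30 shared insertions 22 had the orientation of the gene, and of the other 52 it was 25. Without the shared positions the mean share on the gene's own strand was 34.4% (n = 19, permutation p = 0.0913), on the other side of 50%, and the mean read percentile was 55.8 (n = 19, permutation p = 0.289).

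The 4 SB tumour insertions had from 4 to 24 reads. In SB tumour 6, a spleen, 1 lay in the 3′ UTR at chr15:25363662-25363663 with 15 reads and 1 in the intron with 24. The others were intronic, with 15 reads in SB tumour 11 and 4 in SB tumour 3. The site in the 3′ UTR, the only exonic insertion found in the gene in any group, is shown with its TA in capitals.
SB site in the 3′ UTR: gtggacaagcTAagtgggctcc

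Among PB tumours the Basp1 rate was compared between sites in the mouse. In 15 mesenteric tumours it was 0.578 ± 0.646 per 1000 (SD), with insertions in 11. In 9 tumours of other nodes or masses it was 0.378 ± 0.304, with insertions in 7. In 6 spleens it was 0.120 ± 0.223, with insertions in 2, PB tumour 3 and PB tumour 18. Each class was set against the other PB tumours. The mesenteric tumours were 0.303 per 1000 higher (two-sided permutation test, adjusted p over 3 classes = 0.160), or 0.175 higher without PB tumour 22 (adjusted p = 0.318), but with at least 10 reads the difference turned to −0.0698 (adjusted p = 0.852). The spleens were at −0.382 per 1000 relative to the others (exact permutation test, adjusted p = 0.160). Other nodes or masses gave −0.0692 (exact permutation test, adjusted p = 0.764), a direction that did not hold, with 0.0267 without PB tumour 22, 0.475 with at least 10 reads and 0.159 for the share of tumours with an insertion. No class differed beyond the spread of the tumours.

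Sample names had 2 forms in the labels, joined and separated, whose meaning is not given in the sources used here. In 8 tumours with separated names the Basp1 rate was 0.374 ± 0.527 per 1000 (SD), and in 22 with joined names it was 0.445 ± 0.525 (two-sided exact permutation p = 0.765). This order rested on PB tumour 22, without which separated names were 0.0204 higher (p = 0.899). The mean read percentile was 59.2 ± 22.5 (SD) in 16 tumours with joined names and 67.2 ± 11.5 in 4 with separated names (exact permutation p = 0.506). Within each form alone it was not past the threshold (permutation p = 0.124 for joined names and exact p = 0.125 for separated names, the smallest that 4 tumours allow).

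Ptprc, Mef2c and Ikzf1 were 3 of the genes with the smallest p in PB tumours by the same readout. Ptprc encodes the CD45 phosphatase of blood cells, Mef2c a transcription factor of B cell development and Ikzf1 the lymphoid transcription factor Ikaros. They held 191, 183 and 108 insertions in 28, 29 and 23 PB tumours, which were 19.6, 9.91 and 14.9 times the expected numbers. Basp1 stood at 26.7 times. In SB tumours Ptprc had 61 insertions in all 11 tumours and Mef2c 18 in 6, and both passed the threshold there, whereas Ikzf1, with 5 in 4, did not.

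Over tumours with insertions in both genes, the mean read percentile of Basp1 was 12.9 points above that of Mef2c (SD 23.7, n = 20, higher in 15, sign-flip permutation adjusted p over 6 comparisons = 0.151). It was 7.66 above that of Ikzf1 (SD 18, n = 19, higher in 14, adjusted p = 0.237) and 2.82 above that of Ptprc (SD 24.8, n = 20, higher in 12, adjusted p = 0.617). The share on the gene's own strand was 5.96, 8.34 and 8.64 percentage points above those of Ptprc, Mef2c and Ikzf1 (adjusted p = 0.617, 0.522 and 0.617). None of these 6 differences passed the threshold.

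**Figure D3:**
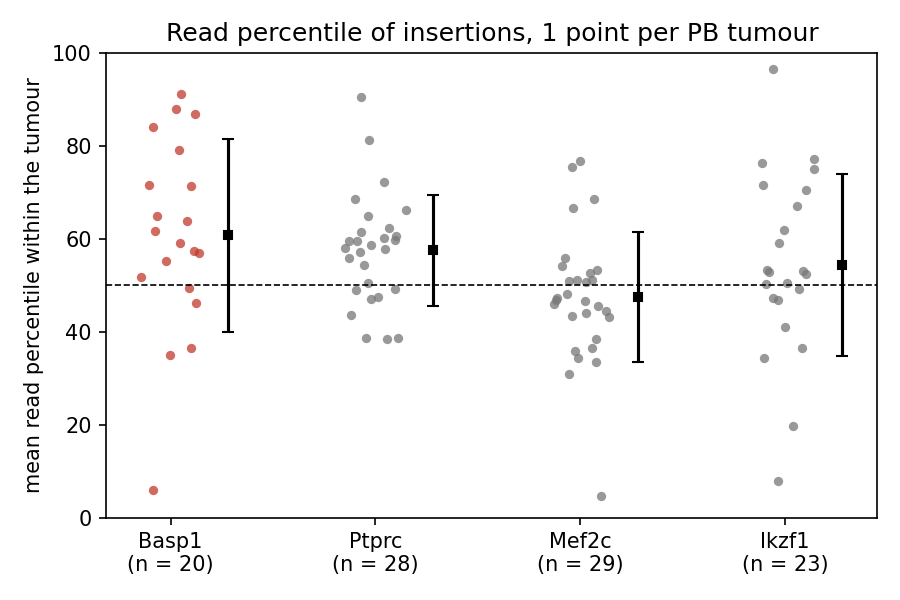
Mean read percentile of a gene's insertions within each PB tumour (vertical axis), with 1 point per tumour for Basp1 and 3 other genes with high insertion numbers, squares and bars for the mean ± SD, and a dashed line at 50, the middle of a tumour. Basp1 averages 60.8 over 20 tumours, and its range overlaps those of the other genes.

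Among 15 genes that are related to Basp1 in structure or are known to act with it or beside it, 2 passed the threshold in PB tumours, beside 4.97% of all genes, and 0 in each of the other groups. Marcks, a membrane protein of the same kind, had 5 insertions in 4 PB tumours where 0.446 were expected. Max, the dimer partner of Myc, had 15 in 11 where 1.39 were expected. By exact Poisson probabilities 1 of the 15 passed, Max (adjusted p = 6.3e-07), beside 2.86% of all genes, while Marcks had an adjusted p of 1. Gap43 had 9 insertions where 8.24 were expected and Wt1 had 3 where 2.52 were expected. The median of observed over expected was 1.34 for the 15 genes and 0.759 for all genes.

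The neighbours of Basp1 did not share its level. Gm48957, a long noncoding RNA gene on the plus strand that begins 426 bp upstream of Basp1, had 1 insertion in PB tumours where 4.67 were expected. Gm36555, a noncoding gene 19186 bp downstream, had 2, in 1 tumour, and was not among the curated genes fitted. Further away, 4930445E18Rik had 1, and Myo10, an unconventional myosin gene, had 20 where 11.0 were expected and did not pass the threshold.

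The genes whose insertions per 1000 followed those of Basp1 most closely over the 30 PB tumours, out of 557 with at least 30 insertions in at least 10 tumours, were Gm38510 (Spearman 0.738), C130026I21Rik (0.697), Ebf1 (0.689), Mtf2 (0.681) and Mgat5 (0.671). The median of the 557 was 0.0969. C130026I21Rik lies inside Gm38510, so these 2 share insertions. Ebf1 is a transcription factor of early B cells. The points share the number of kept insertions of each tumour, and 10 of the 30 have no Basp1 insertion, and the correlations are a description without a p.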

How the data were processed

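The authors deposited unnormalized read counts, 1 for each insertion, from 75 bp paired-end sequencing of splinkerette PCR products, with position and orientation on mm10 per the submitters' processing notes. The aligner and insertion caller are not given in the sources used here. A normalized coverage, 1 further column, was not used. Each insertion was assigned to the closest motif (TTAA for PB, TA for SB) no more than 5 bp away, and lines of a sample that met at a motif became 1 insertion. Sex chromosomes and chromosome 14, which had the most insertions per Mb and was taken as the donor, were left out. Kept insertions per sample ranged from 756 to 10800 in PB tumours, 2035 to 7362 in PB tails, 760 to 8786 in SB tumours and 2537 to 7148 in SB tails. Median reads per sample were 136578, 122874, 106974 and 104091. Genes were curated RefSeq genes from start to end.

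Expected numbers and the Wald test followed the null model of the study's methods. That model treats all motif sites of a chromosome alike and does not correct for the insertion preferences of PB and SB. Values over tumours were tested with 100000 sign flips or permutations, exactly where a group held under 10. SB tumours and tails were compared with edgeR 4.0.16 and, as an alternative, DESeq2 1.42.0, in R 4.3.3, and other steps used Python 3.11.15, numpy 2.4.6, pandas 2.3.3 and scipy 1.17.1. The tests were also run on simulated data, and the outcome of those runs is not reported here. Genes examined by name are Basp1, 3 others of high insertion number, 15 in lists, which are given as counts and not all named, the neighbours within 50 kb and beyond, and the 5 most alike. The members and lists were chosen with earlier results of these data known. Genes that the rules for insertion number and for the lists select, 1 each, are not reported here and are left out of the list counts. Basp1 was under the minimum of the planned SB fit, so the permutation test given for it was chosen after seeing the data, as were the values without shared positions, the adjustment over 2120 genes and the read percentile between name forms.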

Additional observations from a re-analysis of the deposited data

Results flagged for a closer look

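In 3 classes of 4 to 10 samples the highest Basp1 rate was far from the others. Among 6 PB tumours from spleen, PB tumour 3 had 0.556 insertions per 1000, where the next had 0.167. It is also the sample with the most reads, 5721832. Among 7 PB tails with separated names, PB tail 11 had 0.491 and the others 0. Among 4 mesenteric SB tumours, SB tumour 11 had 0.114 and the others 0. In the tail and the SB class the value rests on 1 insertion. In all, 5 classes were examined. Where 1 sample holds 1 insertion and the others none, the gap is as large as it can be, so the usual rate of 1 in 20 for chance gaps does not apply to such classes.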

How the results depend on the processing

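Of 83 alternatives, 57 were counted as leaving the result as it was. For a test this means the same direction and side of the threshold. Numbers of genes were allowed a limited fold change, and the PB tumour level a change within the SD of its ratio over tumours. Of these, 9 were numbers of genes, 8 were values without a test and 12 had too few samples with insertions to pass, so that 28 kept direction and side of a threshold that could be passed. In PB tumours Basp1 ranged from 6.92 times the expected number (presence per sample) to 33.7 times (at least 10 reads), a description of the level that chose it. Presence counts tumours hit, 20 against 2.89 expected, and is a different measure from the number of insertions. In tails too few samples held insertions to pass under any of the 5 alternatives. In SB tumours the gene did not pass under any, with a Benjamini-Hochberg p of 0.0759 by the Wald test. With at least 10 reads only 2 SB tumours held an insertion, under the minimum of 3 samples, so that this setting could not pass. The number of genes past the threshold also moved: in PB tumours from 1121 to 646 (exact Poisson), 497 (presence per sample), 479 (at least 10 reads) and 2850 (Benjamini-Hochberg), in PB tails from 282 to 83, 95 and 880 (exact Poisson, presence, Benjamini-Hochberg), in SB tumours from 95 to 32, 16 and 307, and in SB tails from 43 to 13, 9 and 167. DESeq2 called 2 genes between SB tumours and tails where edgeR called 10. The read percentile kept its call with at least 10 reads (66.0, p = 0.00316), with the flanks (61.6, p = 0.0191) and without PB tumour 22 (61.0, p = 0.0385). It lost its call with joined names (59.2), separated names (67.2, where 4 tumours could not pass), without shared positions (55.8) and after adjustment over 2120 genes (60.8, adjusted p = 0.741). The own-strand share, a mean over tumours, turned to 34.4% without shared positions, where 25 of the 52 insertions had the orientation of the gene. The distance from the start turned to 0.125 kb with separated names and 1.15 kb without shared positions, and moved to −3.94 kb with at least 10 reads. The mesenteric difference turned to −0.0698 with at least 10 reads. That of other nodes or masses turned to 0.475 with at least 10 reads, 0.0267 without PB tumour 22 and 0.159 as presence. That of separated names turned to 0.0204 without PB tumour 22. The name forms held fewer tumours, but the cause of these changes was not tested. No paired analysis was possible because no mouse gave both a tumour and a tail. With about 1 insertion expected in tails and SB groups, even a several-fold excess was not detectable. The 4.31 times the expected number in SB tumours did not pass the Bonferroni threshold.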

Other observations

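PB tumour 21 held an insertion with 1708 reads 3′ of Basp1, at chr15:25356706-25356709, the highest read count of the window and rank 17 of 5641 in that tumour. PB tail 7 held an insertion at the same position and with the same orientation, with 8 reads. The labels give these samples to different mice, and the origin of the shared position was not tested.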
